A study of Mus musculus with 18 samples.

Results

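10 genes of redox metabolism are described here across the cells of mouse back skin after subcutaneous expansion: Prdx1, Prdx5, Prdx6, Txn1, Txnrd1, Hmox1, Srxn1, Slc7a11, Gclm and Gpx3. They were chosen by symbol, because earlier results of these data showed them to vary, and all 10 were found among the 32285 genes of every matrix. The measurement was single-cell 3' RNA sequencing on the 10x Genomics platform, read as unique molecular identifiers (UMIs, counts of single captured molecules). All mice had surgery with an incision near the tail and a tunnel under the skin towards the neck. Expanded mice (EXP) received a hydrogel expander there, which swells and stretches the skin above it, and control mice (CTRL) received none, so implant and stretch cannot be told apart. Strain, sex and age are not given in the sources used here. Back skin was taken on day 1, 2 or 4, digested and sorted for live cells, and the mice of an arm were pooled in 1 tube per sequencing round. This gave 5 libraries per arm, from day 1 rounds 1 and 2, day 2 rounds 1 and 2, and day 4 round 1. Values of 5 libraries are listed below in that order. The p-values measure the spread between these pools, except in fits with mice as units.

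Most of these genes are textbook targets of NRF2 (gene Nfe2l2), a transcription factor that the adaptor protein KEAP1 keeps low in unstressed cells and that oxidants and electrophiles release. NRF2 pairs with small MAF proteins at antioxidant response elements, where the repressor BACH1 competes for the same sites and leaves them when heme binds it. Peroxiredoxins reduce peroxides, thioredoxin and its reductase return them to the working state, and the glutathione branch depends on cystine import. In skin these systems are known from keratinocyte stress responses, wound repair and inflammatory cells.

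The libraries held 55174 barcodes, of which 44342 cells stayed after limits on quality and removal of doublets (27648 control and 16694 expanded). UMIs assigned to genes ran from 17726739 to 75470722 per library, and median UMIs per kept cell from 6441 to 12848. At most 18 barcodes were shared by any pair of libraries. Cells were clustered without the 10 genes and without 88 other redox genes, and 30 of 39 clusters were named for 16 classes from marker genes. These are marker-based, "fibroblast-like" and so on, and are called fibroblasts, macrophages and so on for short. The smooth muscle class (cluster 18, led by Rgs5, Acta2 and Myh11) also carried every listed pericyte marker. Pericytes and smooth muscle are therefore not told apart in it. Basal keratinocytes were clusters 3 and 8, and cluster 3 held 56.3% of control and 62.6% of expanded cells of the class. Its leading genes include Krt15 and the listed hair follicle markers Lhx2, Sox9 and Krt17. Basal cells of follicle and epidermis are therefore not told apart in this class. The 9483 cells of the other 9 clusters stay unnamed. The shares of clusters within a class differed between arms, by more in fibroblasts and macrophages than in the other classes (T cell cluster 30 held 11.8% of control and 24.6% of expanded T cells, endothelial cluster 31 20.6% and 11.9%). Among fibroblasts, clusters 0 (led by Col1a1 and Cpz), 7 (Cilp, Mfap4) and 20 (Gpx3, C7, Cxcl13) held 59.3%, 14.6% and 7.45% of control cells and 14.2%, 7.46% and 2.15% of expanded cells, and cluster 13 (Tnc, Mmp3, Saa3) held 2.95% and 46.5%. Among macrophages and monocytes, cluster 6 (Ccl8, Cd209f, Folr2) held 62.7% of control and 4.49% of expanded cells, cluster 5 (Chil3, Ly6c2, Arg1) held 8.21% and 69.3%, and cluster 10 (Pf4, Ms4a7, Trem2) held 29.1% and 26.2%. For these 2 classes, values of single clusters are given beside most class values of the genes described here. The other redox genes are given by class only. Hemoglobin and other erythroid transcripts reached 79286 CPM (counts scaled so that the UMIs of each class and library sum to the same total, the usual CPM scale) in the fibroblasts of the expanded day 2 round 2 library and at most 6024 CPM in those of any other library.

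The promoter letters show which of the genes carry the core of an antioxidant response element near their start. Of the 10 genes, 8 had an entry in the RefSeq promoter table (GRCm38.p6); Hmox1 and Prdx6 had none. The core TGACNNNGC was searched on both strands from 250 bases before to 50 after each start. It was in 4 of these 8 genes (Gclm, Prdx1, Srxn1, Txnrd1). Counted by promoter it was in 4 of the 10 listed for these genes, and 12.4% of the 32851 promoters of the same length hold it. The AP-1-type sequence TGAGTCA was in Prdx1 and Srxn1, 2 of the 10 promoters, and 5.20% of all promoters hold it. Below are the 250 bases before the start of the 4 genes, 5′ to 3′ on the gene's strand, with both motifs in capitals; a match is a description of letters, not of binding. In Gclm (chr3:122245307-122245556, plus strand) the core lies 134 bases before the start, on the opposite strand. In Prdx1 (chr4:116685349-116685598, plus strand) it lies 133 bases before the start on the opposite strand and overlaps the AP-1-type sequence at 131. A further match of the AP-1-type sequence lies at 237. In Txnrd1 (chr10:82858956-82859205, plus strand, 1 of 3 starts listed) it lies 92 bases before the start, on the opposite strand. In Srxn1 (chr2:152105274-152105523, plus strand) TGAGTCA lies 102 and 45 bases before the start, and the core lies 29 bases after it, outside the stretch printed.
Gclm: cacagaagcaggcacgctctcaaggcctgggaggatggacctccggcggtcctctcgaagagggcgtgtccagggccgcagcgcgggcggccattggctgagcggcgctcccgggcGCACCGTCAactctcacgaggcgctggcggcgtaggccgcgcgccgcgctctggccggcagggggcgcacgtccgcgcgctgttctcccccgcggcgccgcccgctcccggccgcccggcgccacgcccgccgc
Prdx1: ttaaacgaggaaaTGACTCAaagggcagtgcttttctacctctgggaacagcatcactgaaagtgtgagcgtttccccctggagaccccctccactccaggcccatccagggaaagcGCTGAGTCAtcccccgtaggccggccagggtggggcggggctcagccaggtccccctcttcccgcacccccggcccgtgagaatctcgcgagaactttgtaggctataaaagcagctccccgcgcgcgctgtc
Txnrd1: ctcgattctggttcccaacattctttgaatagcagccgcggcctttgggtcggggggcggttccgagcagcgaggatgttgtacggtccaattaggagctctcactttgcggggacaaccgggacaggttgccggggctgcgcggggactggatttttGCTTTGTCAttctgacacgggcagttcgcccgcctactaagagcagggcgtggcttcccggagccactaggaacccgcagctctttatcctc
Srxn1: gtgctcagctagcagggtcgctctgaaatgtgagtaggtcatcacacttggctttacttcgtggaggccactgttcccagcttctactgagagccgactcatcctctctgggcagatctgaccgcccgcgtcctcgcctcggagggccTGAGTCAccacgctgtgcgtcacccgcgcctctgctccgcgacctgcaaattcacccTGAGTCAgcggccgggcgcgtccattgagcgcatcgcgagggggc

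Each of the genes is protein-coding in the GENCODE M21 annotation of GRCm38. Hmox1 lies at chr8:75093621-75100589, Slc7a11 at chr3:49892526-50443614, Gclm at chr3:122245557-122270732, Prdx1 at chr4:116685544-116700822 and Txn1 at chr4:57943373-57956411. Gpx3 lies at chr11:54902453-54910377, Prdx5 at chr19:6906697-6910106, Prdx6 at chr1:161240112-161251219, Txnrd1 at chr10:82833951-82897712 and Srxn1 at chr2:152105516-152111376.

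Classes differed in which of the genes they carried, before any comparison of arms. Levels are CPM within a class and library, given as the mean over libraries with at least 20 cells of the class, and compared here within a gene. Classes with at least 3 such libraries in an arm are put in order; neutrophils and dendritic cells had 2 each in control skin and stand outside the control order. Slc7a11, the cystine importer, was a neutrophil transcript: 1967 ± 635 CPM in expanded libraries (SD, n = 5), against 258 ± 150 (n = 5) in macrophages, next in the order, and then 21.6 ± 10.8 (n = 4) in dermal papilla cells. In control skin 2 libraries had enough neutrophils, with 2461 and 1981 CPM. Prdx5, a mitochondrial and peroxisomal peroxiredoxin, was also highest in neutrophils among expanded classes (1447 ± 422 CPM, n = 5, lowest library 913), above macrophages (488 ± 154). Prdx1, the abundant cytosolic peroxiredoxin, was lowest there (45.6 ± 49.8 CPM in expanded libraries).

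**Figure D1:**
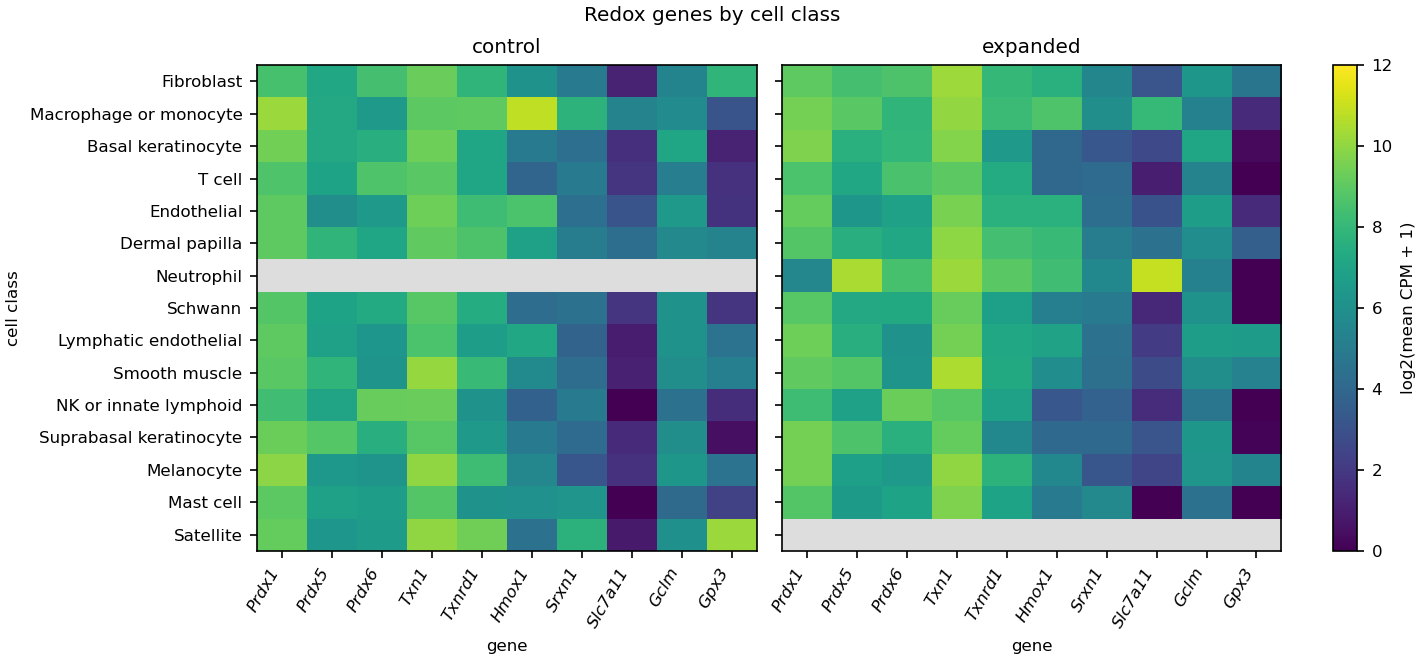
Mean level of the 10 redox genes (columns, log2 of mean CPM + 1) in cell classes (rows, by number of cells) of control and expanded skin; grey rows had fewer than 3 libraries. Neutrophils carry the brightest Slc7a11 and Prdx5, macrophages of control skin the brightest Hmox1 and satellite cells the brightest Gpx3.

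Hmox1, the enzyme that breaks heme into biliverdin, iron and carbon monoxide, was highest in macrophages of control skin (1817 ± 927 CPM, n = 5), then in endothelial cells (392 ± 174 CPM) and lymphatic endothelial cells (145 ± 54.8). In expanded skin macrophages (419 ± 56.0) and neutrophils (323 ± 208, n = 5) differed by less than the larger SD. Srxn1, sulfiredoxin, which repairs overoxidized peroxiredoxins, followed macrophages too: 214 ± 101 CPM in control, with satellite cells of muscle at 207 ± 52.7 (n = 3), a gap smaller than either SD, and mast cells at 76.5 ± 34.0. Txnrd1, cytosolic thioredoxin reductase, was at 682 ± 313 CPM in satellite cells and 511 ± 178 in macrophages of control skin. These neighbours too lay within their spread.

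Gpx3, the secreted glutathione peroxidase, was mostly a transcript of satellite cells and fibroblasts in control skin. Satellite cells held 1156 ± 264 CPM (n = 3) and fibroblasts 231 ± 131 (n = 5), and no other class averaged above 40.3. Prdx6, which joins peroxidase and phospholipase activity, was highest in NK and innate lymphoid cells (588 ± 62.8 CPM in control, 622 ± 137 in expanded, n = 5 each). T cells followed in control skin at 415 ± 41.5 CPM and fibroblasts in expanded skin at 403 ± 62.1. Txn1, thioredoxin itself, was highest in smooth muscle (1104 ± 181 CPM in control and 1454 ± 238 in expanded, n = 5 each). Satellite cells (1036 ± 254 CPM, n = 3) and melanocytes (1012 ± 185, n = 4) came next in control skin, within the spread of smooth muscle. Fibroblasts came next in expanded skin (1194 ± 228 CPM), with a range that overlapped that of smooth muscle. Gclm, the modifier subunit of the enzyme that limits glutathione synthesis, was highest in basal keratinocytes of control skin (130 ± 26.8 CPM against 87.5 ± 12.6 in endothelial cells).

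Expanded and control skin were compared within 10 classes by edgeR's quasi-likelihood test on counts summed per class and library, with day in the model and Benjamini-Hochberg (BH) adjustment over all genes of the class; a gene is called at an adjusted p under 0.05. Of 100 gene and class pairs, 88 passed the filter on low counts and 21 were called, 12 higher and 9 lower in expanded skin. Since the genes were chosen with this contrast known, these counts are a description. Macrophages and monocytes had 9 of 10 called (4 higher, 5 lower), where 27.3% of all genes tested were called (12.2% higher, 15.0% lower), and fibroblasts 6 of 10 (5 higher, 1 lower), where 33.1% were (16.5% and 16.6%). Lymphatic endothelial cells had 2 of 9 called, both higher (10.0% of all genes, 4.92% higher and 5.12% lower). Smooth muscle had 1 higher and 1 lower of 9 (15.7%, 6.68% higher and 9.01% lower). Basal keratinocytes had 1 lower of 9 (10.1%, 5.31% higher and 4.80% lower), and suprabasal keratinocytes 1 lower of 9 (4.78%, 2.00% higher and 2.78% lower). With edgeR none was called in endothelial cells (9 tested; 12.5% of all genes, 5.66% higher and 6.82% lower), T cells (8; 0.530%, 0.115% and 0.414%), Schwann cells (8; 0.268%, 0.0670% and 0.201%) or NK and innate lymphoid cells (7; 0.550%, 0.0367% and 0.514%). The median log2 fold change of the genes was 0.55 in fibroblasts and -0.69 in macrophages, and that of all genes tested 0.02 and 0.00. CPM ratios run above the fitted fold changes, since CPM are not rescaled for composition: their median over all genes tested was 0.20 (log2) in fibroblasts and 0.12 in macrophages.

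**Figure D2:**
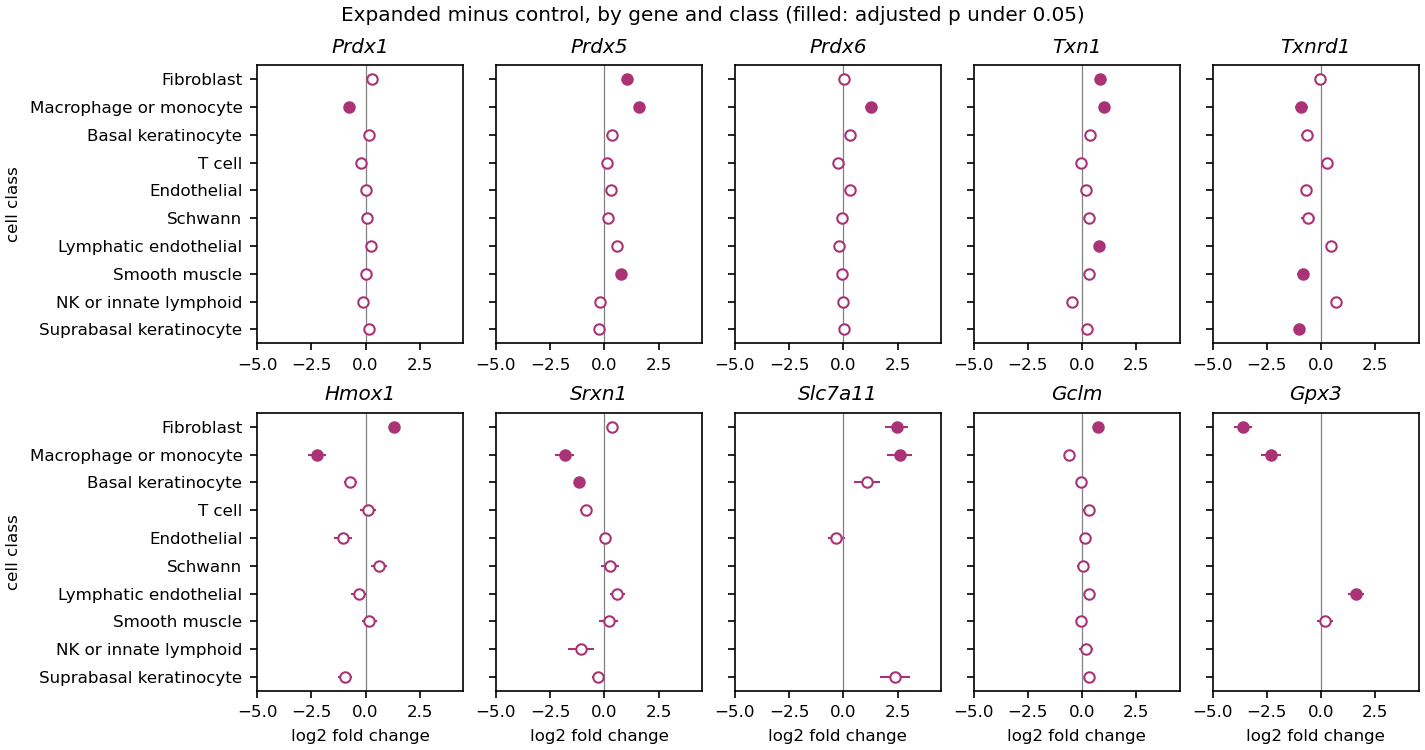
Log2 fold change of expanded over control (x axis, point with standard error) for each gene (panel) in 10 cell classes (y axis); filled points passed the adjusted p of 0.05. Hmox1 has its filled points on opposite sides, 1.33 in fibroblasts and -2.23 in macrophages, while Prdx5 and Txn1 have all theirs on the right.

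Hmox1 went in opposite directions in the 2 classes with most calls. In fibroblasts the 5 control libraries held 71.9, 65.1, 73.0, 69.9 and 61.4 CPM and the 5 expanded libraries 115, 270, 165, 233 and 192 CPM. Every expanded library was above every control library, and the fit gave a log2 fold change of 1.33 (SE 0.21, edgeR BH-adjusted p = 8.9e-04). In macrophages the control libraries held 2412, 1980, 2835, 459 and 1400 CPM and the expanded libraries 398, 421, 337, 477 and 464. Expanded libraries lay close together, and the control library of day 2 round 2 lay inside their range while the other 4 lay far above it. The fit gave -2.23 (SE 0.41, edgeR BH-adjusted p = 0.00373), and -2.50 without that control library. The difference between the classes, fibroblast minus macrophage, was itself tested with library as a block and was 3.34 on the log2 scale (SE 0.41, edgeR BH-adjusted p = 7.0e-04), where 16.4% of all genes were called.

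The control library of day 2 round 2 also differed in which macrophages it held. Cluster 6 made up 25.8% of its macrophages and cluster 5 26.6%, against 55.2% to 84.2% and 2.31% to 5.99% in the other control libraries. The expanded library of day 1 round 1 stood apart as well, with 43.8% in cluster 6 and 30.5% in cluster 5, against 0.184% to 10.2% and 67.2% to 77.1% in the other expanded libraries. Cluster 6 held the highest Hmox1 of the class, with 2280 ± 778 CPM in control (n = 5) and 561 ± 89.2 in the 2 expanded libraries with enough cells. Cluster 5 was at 363 ± 261 (n = 2) and 378 ± 103 (n = 5). Cluster 10 had enough cells in every library, and there Hmox1 was 963 ± 530 CPM in control and 397 ± 89.7 in expanded libraries. A fit within cluster 10 alone gave a log2 fold change of -1.48 (SE 0.38, edgeR BH-adjusted p = 0.0157; 18.1% of all genes were called). Unnamed cluster 1, with Mgl2, Cd74 and class II MHC genes among its leading genes, gave -2.56 (SE 0.67, edgeR BH-adjusted p = 0.0258; 17.1% called). Over single myeloid clusters Hmox1 was thus called lower in clusters 10 and 1, and also in unnamed cluster 21 (Ccl22, Cd207), given further below. Cluster 5, which held most expanded macrophages, had similar means in both arms. The part of cluster shares in the class value was not tested.

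Mean Hmox1 was higher in the expanded arm in each of the 5 fibroblast clusters with values in both arms, and the libraries overlapped in clusters 7 and 11. The means in control and expanded libraries were 50.6 and 93.6 CPM in cluster 0, 93.2 and 210 in cluster 13, 81.2 and 122 (expanded n = 2) in cluster 7, 41.9 and 286 in cluster 19, and 81.3 ± 16.7 and 163 ± 62.5 (n = 5 each) in cluster 11 (Igfbp2, Mme, Wnt5a). Cluster 19 held shallow cells, with a median depth of 0.216 times that of their library. It made up 50.3% of fibroblasts in the expanded day 2 round 2 library, the one with most erythroid transcripts. Some expanded libraries in clusters 0 and 19, and some control libraries in cluster 13, had too few cells to be included. Cluster 11, with enough cells in all 10 libraries, gave a log2 fold change of 0.90 (SE 0.25, edgeR BH-adjusted p = 0.0318, 11.0% of all genes called). Unnamed cluster 2 (Coch, Fmod, Crabp1) gave 0.84 (SE 0.23, edgeR BH-adjusted p = 0.0399; 9.29% called). Per mouse, from hashtags, control fibroblasts ran from 42.3 to 80.3 CPM over 14 mice and expanded fibroblasts from 68.5 to 208 over 9 mice with at least 20 cells. The level of macrophage markers (9 genes, summed) in fibroblasts was 55.2 to 90.5 CPM in control and 35.5 to 144 in expanded libraries; its part in the result was not tested.

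**Figure D3:**
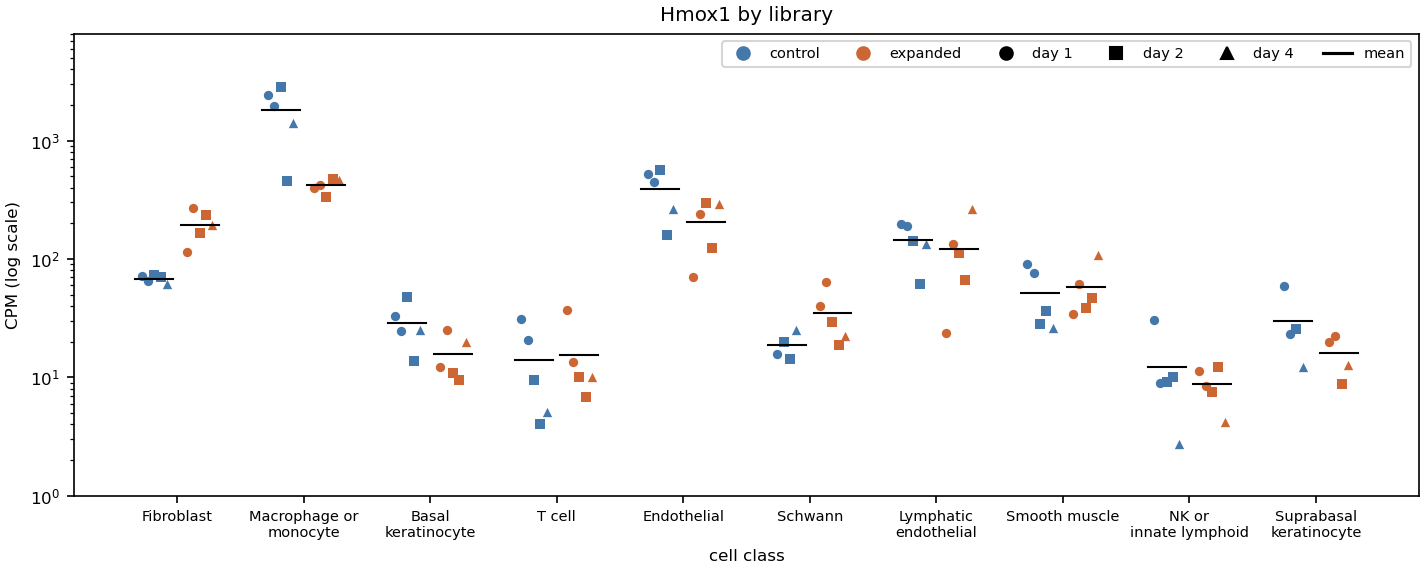
Hmox1 level (CPM, log scale) in each library (points, shaped by day) of 10 cell classes, with the mean of each arm as a bar. The 5 expanded fibroblast libraries (115 to 270) lie above all 5 control libraries (61.4 to 73.0), and in macrophages 4 of 5 control libraries (1400 to 2835) lie above all expanded libraries (337 to 477).

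Endothelial cells held 520, 449, 568, 160 and 262 CPM of Hmox1 in control and 70.8, 241, 297, 124 and 289 in expanded libraries. The groups overlapped, expanded was lower in 4 of 5 pairs of day and round, and the log2 fold change of -1.04 (SE 0.42) missed the threshold (edgeR BH-adjusted p = 0.124; 0.0441 with libraries of 1 day and round blocked together). Fibroblast minus endothelial was 2.37 (SE 0.37, edgeR BH-adjusted p = 0.00175; 5.32% of all genes called). Fibroblast minus suprabasal keratinocyte was 2.13 (SE 0.37, edgeR BH-adjusted p = 0.00904; 2.08% called) and was not called after each cell was thinned to 2000 UMIs (adjusted p = 0.571).

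Slc7a11 was higher in expanded macrophages, from 16.0, 60.5, 15.9, 64.2 and 46.9 CPM in control to 65.1, 474, 187, 289 and 275 CPM. The groups just failed to overlap, the expanded day 1 round 1 library, with its larger share of cluster 6, being the low one. The log2 fold change was 2.59 (SE 0.56, edgeR BH-adjusted p = 0.00748). After thinning to 2000 UMIs per cell (302 control and 117 expanded macrophages were shallower and dropped), the share of macrophages with an Slc7a11 UMI was 4.07% in control and 23.7% in expanded libraries (7.67% and 43.7% before thinning). In T cells, where the gene was near 0, the thinned shares were 0.264% and 0.473%; before thinning, median depths were 7999 UMIs in macrophages and 4300 in T cells. Within clusters the levels were closer: 229 ± 91.7 (n = 2) and 338 ± 149 CPM (n = 5) in cluster 5, 41.5 ± 23.5 and 55.6 ± 52.0 in cluster 10, and 5.06 ± 4.72 and 0 in cluster 6. No call was made within cluster 10, and the part of cluster shares in the class value was not tested.

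Neutrophil markers moved with Slc7a11 in macrophages. The summed level of 6 neutrophil markers in that class was 31.9 to 126 CPM in control and 292 to 1894 in expanded libraries, and in neutrophils themselves it was 96711 to 152719 in expanded libraries, where Slc7a11 was 1967 CPM. Their part in the result was not tested.

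In fibroblasts Slc7a11 was called higher at a low level, with 1.14, 0.832, 2.40, 0.928 and 1.06 CPM in control and 1.53, 9.12, 16.2, 2.80 and 10.1 in expanded libraries. The day 1 round 1 library of the expanded arm lay within the control range. The log2 fold change was 2.46 (SE 0.54, edgeR BH-adjusted p = 0.00507). By cluster the means were 1.38 and 3.43 CPM in cluster 0, 1.21 and 1.60 in cluster 11 and 1.53 and 12.1 in cluster 13. Neutrophil markers summed to 0.650 to 3.37 CPM in control fibroblasts and 3.35 to 181 in expanded ones, and their part in it was not tested. Unnamed cluster 27 (Apod, Ccl11) had more: 46.0 ± 29.1 CPM in control and 177 ± 59.2 in expanded libraries (n = 4 each), a log2 fold change of 1.97 (SE 0.29, edgeR BH-adjusted p = 0.00179; 5.59% of all genes called). Endothelial cells showed no such shift (-0.32, SE 0.38, edgeR BH-adjusted p = 0.629), and the difference from them was 2.88 (SE 0.54, adjusted p = 0.00621) for fibroblasts and 2.86 (SE 0.38, adjusted p = 5.2e-04) for macrophages, where 8.57% of all genes were called.

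Gclm, the glutathione synthesis subunit, rose in fibroblasts from 34.4, 47.6, 46.4, 43.4 and 33.4 CPM to 92.8, 126, 68.8, 74.2 and 42.9. Expanded was higher in every pair, with the day 4 library lowest and inside the control range. The log2 fold change was 0.74 (SE 0.17, edgeR BH-adjusted p = 0.00666). Within cluster 11 it was 0.46 (SE 0.14, edgeR BH-adjusted p = 0.0432). Macrophages gave -0.61 (SE 0.22, edgeR BH-adjusted p = 0.0618), not called, but called with DESeq2, with no filter on low counts and without the control library of day 2 round 2 (adjusted p = 0.0465, 0.0267 and 0.0194), and the fibroblast minus macrophage difference was 1.36 (SE 0.35, adjusted p = 0.0181).

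Gpx3 fell in fibroblasts by 3.60 on the log2 scale (SE 0.41, edgeR BH-adjusted p = 2.3e-04). Control libraries held 118, 184, 449, 252 and 155 CPM and expanded libraries 11.9, 4.25, 34.8, 22.4 and 50.2 CPM. The groups did not overlap. Cluster 20, whose first leading gene is Gpx3, held 2245 ± 322 CPM in control (n = 5); in expanded skin it had 40 cells and no library with 20. In cluster 7 the level was 187 ± 88.0 in control (n = 5) and 6.98 ± 5.86 in 2 expanded libraries. In cluster 0 it was 12.2 ± 11.1 and 9.67 ± 7.36, within the spread. With single mice as units, from libraries that carry hashtags, the log2 fold change was -1.55 (edgeR BH-adjusted p = 0.0300).

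**Figure D4:**
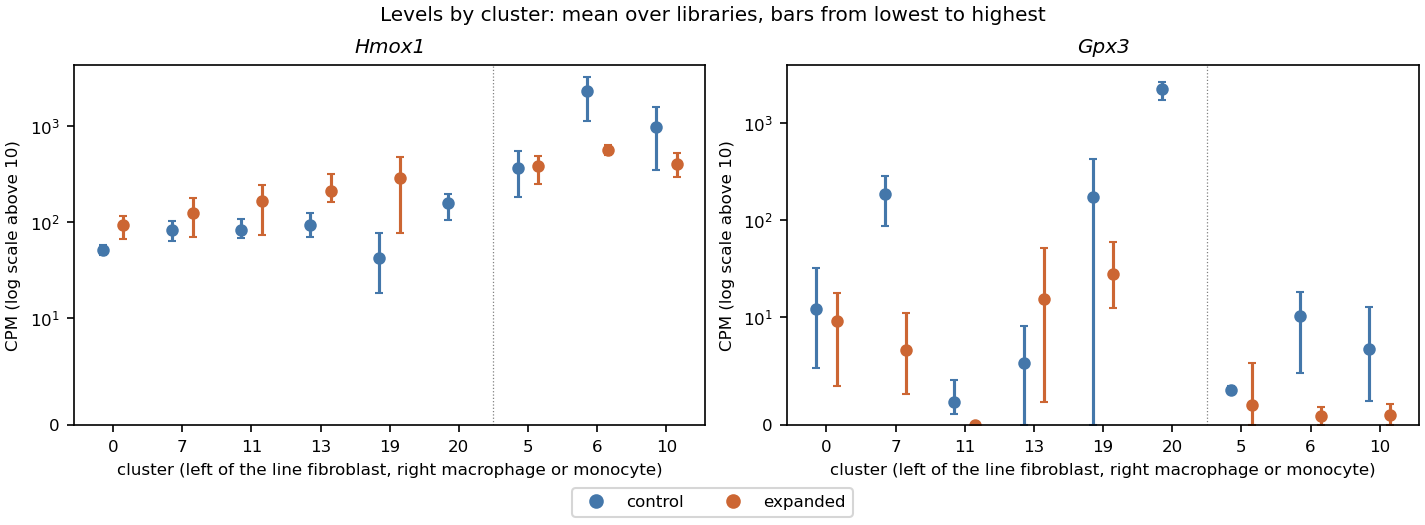
Hmox1 and Gpx3 (CPM, log scale above 10) in the clusters of the fibroblast class (0 to 20, left of the dotted line) and of the macrophage class (5, 6, 10), as mean over libraries with bars from the lowest to the highest library. Gpx3 is concentrated in cluster 20 (mean 2245 in control), and Hmox1 of cluster 10 is at 963 in control and 397 in expanded libraries.

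Lymphatic endothelial cells went the other way for Gpx3. Control libraries held 16.9, 16.3, 0, 67.0 and 11.9 CPM and expanded libraries 52.7, 27.6, 101, 136 and 165 CPM. Expanded was higher in every pair, the ranges overlapped through the control library of day 2 round 2, and the log2 fold change was 1.62 (SE 0.36, edgeR BH-adjusted p = 0.0107). Without the day 4 pair's control or expanded library it was 1.13 and 1.14 and no longer called (adjusted p = 0.0831 and 0.0858), and without the control library of day 2 round 2 it was 2.46. Fibroblast markers, 6 genes summed, were 318 to 6769 CPM in control and 38.8 to 4491 in expanded lymphatic endothelial cells, medians 1613 and 113, with wide overlap; their part in the result was not tested.

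Macrophages held little Gpx3, 7.79 ± 2.28 CPM in control and 1.79 ± 1.94 in expanded libraries (log2 fold change -2.31, SE 0.47, edgeR BH-adjusted p = 0.00596). Fibroblast markers moved with it in that class, from 349 to 2291 CPM in control to 32.5 to 379 in expanded libraries, and their part in it was not tested.

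Peroxiredoxins did not move as 1 group. Prdx5 was called in 3 classes, Prdx1 and Prdx6 in 1 each. In fibroblasts it went from 88.4, 122, 119, 181 and 183 CPM to 154, 209, 452, 403 and 542, higher in every pair with overlap through the expanded day 1 round 1 library (log2 fold change 1.06, SE 0.19, edgeR BH-adjusted p = 0.00181). In macrophages it went from 108, 113, 93.4, 249 and 188 CPM to 279, 420, 465, 639 and 638, with no overlap (1.61, SE 0.24, edgeR BH-adjusted p = 0.00146). Cluster 5 held 503 ± 73.0 (n = 2) and 633 ± 136 CPM and cluster 10 143 ± 41.2 and 174 ± 33.0. These means lay further apart between the clusters than between arms within them. The part of cluster shares in the class value was not tested. Of the fibroblast clusters, cluster 0 held 127 ± 39.4 and 148 ± 26.5 CPM (expanded n = 3), cluster 13 197 ± 14.9 (n = 3) and 460 ± 238, and cluster 11 was not called (152 ± 44.1 and 236 ± 127; 0.47, SE 0.17, adjusted p = 0.0912). Smooth muscle gave 0.78 (SE 0.18, edgeR BH-adjusted p = 0.0123), not called without either day 4 library (adjusted p = 0.0691 for each). Within clusters 2 and 27, both unnamed, Prdx5 gave 0.73 (SE 0.11, edgeR BH-adjusted p = 0.00230) and 1.05 (SE 0.27, adjusted p = 0.0412).

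Prdx1 was lower in expanded macrophages, from 1501, 1210, 1138, 730 and 1214 CPM to 783, 576, 724, 739 and 822 (log2 fold change -0.77, SE 0.19, edgeR BH-adjusted p = 0.0143). The ranges overlapped through the control library of day 2 round 2. Cluster 6 held 1374 ± 254 CPM in control, cluster 10 775 ± 152 in control and 826 ± 127 in expanded, and cluster 5 663 ± 77.1 and 668 ± 96.6. In fibroblasts the CPM of Prdx1 did not overlap (324 to 435 and 472 to 569), yet the fitted change of 0.31 (SE 0.12) was not called (edgeR BH-adjusted p = 0.0628). It was called with DESeq2 (adjusted p = 0.0291). With mice as units, which share pools, edgeR called it as well (0.40, adjusted p = 0.00107). The fibroblast minus macrophage difference was 1.09 (SE 0.24, adjusted p = 0.00921).

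Prdx6 was higher in expanded macrophages, from 71.3, 57.1, 49.3, 171 and 97.1 CPM to 130, 215, 206, 277 and 326 (log2 fold change 1.29, SE 0.28, edgeR BH-adjusted p = 0.00780). Expanded was higher in every pair, with overlap through the control library of day 2 round 2. Cluster 10 was not called (86.4 ± 46.9 and 133 ± 32.1 CPM, log2 fold change 0.33, SE 0.24, edgeR BH-adjusted p = 0.376). Cluster 5 held 247 ± 4.60 (n = 2) and 276 ± 79.7, and cluster 6 61.5 ± 17.3 and 84.1 ± 16.6 (expanded n = 2). The means of cluster 5 lay further from those of the other clusters than the arms lay apart within any cluster. The part of cluster shares in the class value was not tested. In fibroblasts it was 0.01 (SE 0.13), and the fibroblast minus macrophage difference was -1.30 (SE 0.38, adjusted p = 0.0323). Cluster 2 gave 0.58 (SE 0.11, adjusted p = 0.00878).

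**Figure D5:**
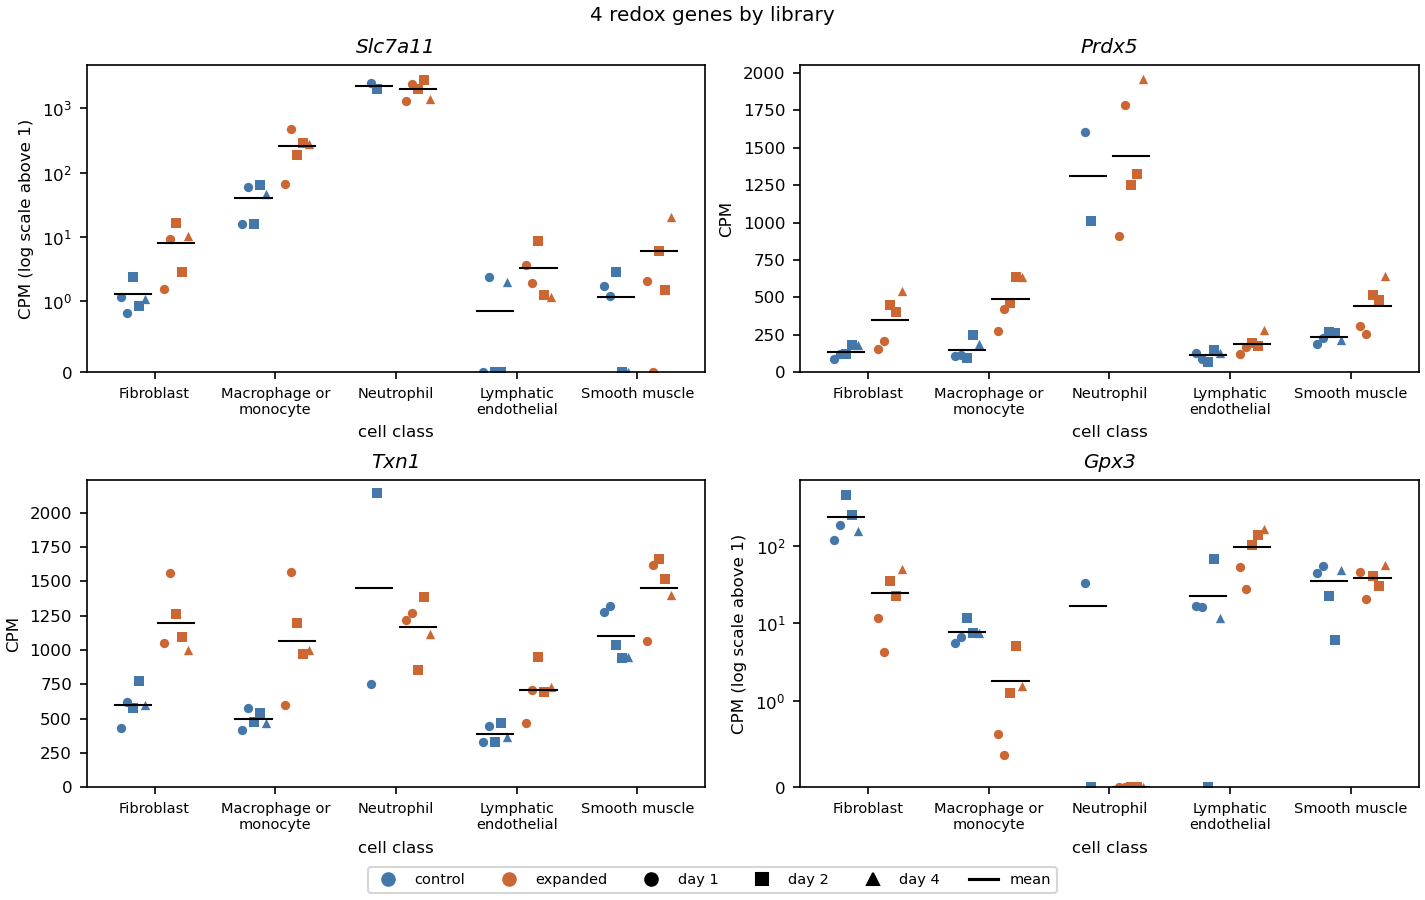
Slc7a11, Prdx5, Txn1 and Gpx3 levels (CPM; Slc7a11 and Gpx3 on a log scale above 1) in each library of 5 cell classes, points shaped by day, bars at the mean of each arm. Slc7a11 sits near 2000 CPM in neutrophils of both arms, and Gpx3 falls in fibroblasts (231 to 24.7 on average) while it rises in lymphatic endothelial cells (22.4 to 96.7).

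Txn1, which carries electrons to peroxiredoxins, rose in 3 classes. Fibroblasts went from 435, 623, 581, 771 and 598 CPM to 1050, 1563, 1262, 1095 and 1002, with no overlap (log2 fold change 0.82, SE 0.16, edgeR BH-adjusted p = 0.00279). Macrophages went from 419, 581, 479, 543 and 469 CPM to 600, 1564, 1199, 973 and 1000, again with no overlap, day 1 round 1 being the low expanded library (1.01, SE 0.25, edgeR BH-adjusted p = 0.0144). Within cluster 10 Txn1 was 541 ± 60.3 and 734 ± 234 CPM and not called (0.22, SE 0.22, adjusted p = 0.520), in cluster 5 761 ± 12.0 (n = 2) and 1232 ± 316, and in cluster 6 427 ± 72.7 and 437 ± 85.5 (expanded n = 2). In the fibroblast clusters it was 497 ± 92.5 and 804 ± 58.5 (n = 3) in cluster 0 and 1068 ± 125 (n = 3) and 1416 ± 252 in cluster 13, and cluster 11 was not called (0.26, SE 0.17, adjusted p = 0.368). The fitted changes in clusters 10 and 11 were smaller than those over their classes, and the part of cluster shares in the class values was not tested. Lymphatic endothelial cells went from 390 ± 64.5 to 708 ± 169 CPM (0.76, SE 0.19, edgeR BH-adjusted p = 0.0178), a call that ended without either day 4 library and after thinning to 2000 UMIs (adjusted p = 0.0837, 0.0849 and 0.0529). Endothelial cells gave 0.17 (SE 0.11), and the differences from them were 0.68 (SE 0.18, adjusted p = 0.0386) for fibroblasts and 0.84 (SE 0.24, adjusted p = 0.0374) for macrophages. Basal keratinocytes held 491 to 756 and 829 to 921 CPM without overlap, but the change of 0.37 (SE 0.11) was not called (edgeR BH-adjusted p = 0.0542; 0.0340 with libraries of 1 day and round blocked).

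Txnrd1, the reductase of Txn1, was called lower in macrophages, smooth muscle and suprabasal keratinocytes, and each call was lost when some single libraries were left out. Macrophages went from 573, 654, 675, 271 and 379 CPM to 193, 359, 317, 273 and 310 (log2 fold change -0.91, SE 0.29, edgeR BH-adjusted p = 0.0419). That call ended when any of 9 of the 10 libraries was left out, and the value without the control library of day 2 round 1 was -0.63. Within cluster 10 Txnrd1 was called: 501 ± 196 and 237 ± 79.9 CPM (-1.29, SE 0.27, edgeR BH-adjusted p = 0.00590). Smooth muscle gave -0.83 (SE 0.26, adjusted p = 0.0484), lost when any of 8 libraries was left out and with a 5% mitochondrial limit (-0.59, adjusted p = 0.164). Suprabasal keratinocytes gave -1.04 (SE 0.19, edgeR BH-adjusted p = 0.0134), from 51.3 to 113 CPM in 4 control and 40.5 to 56.2 CPM in 4 expanded libraries; this ended without 3 of the libraries and after thinning (adjusted p = 0.503). With the same block Txnrd1 was also called in basal keratinocytes (-0.72, adjusted p = 0.0131) and endothelial cells (-0.72, adjusted p = 0.00760). Fibroblasts gave -0.04 (SE 0.21), and the differences were 0.83 (SE 0.18, adjusted p = 0.00751) from macrophages and 0.68 (SE 0.17, adjusted p = 0.0324) from endothelial cells. After thinning to 2000 UMIs per cell neither difference was called (adjusted p = 0.0633 and 0.273).

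Srxn1 was lower in expanded macrophages, from 282, 315, 240, 59.1 and 174 CPM to 26.4, 105, 63.3, 55.0 and 53.7. Expanded was lower in every pair, and only the control library of day 2 round 2 fell into the expanded range. The log2 fold change was -1.84 (SE 0.44, edgeR BH-adjusted p = 0.0113), with an adjusted p of 0.0515 without the control library of day 2 round 1. Within cluster 10 it was 146 ± 68.8 and 43.7 ± 32.8 CPM (-1.93, SE 0.37, edgeR BH-adjusted p = 0.00369), and in cluster 1 -1.38 (SE 0.39, adjusted p = 0.0324). Basal keratinocytes went from 20.6, 34.5, 18.0, 7.77 and 18.5 CPM to 9.17, 10.3, 6.67, 6.23 and 11.2 (-1.15, SE 0.24, edgeR BH-adjusted p = 0.0163), lower in every pair with overlapping ranges; the call ended without the expanded day 1 round 2 library (adjusted p = 0.0594), with mice as units (0.173) and with all variable genes in the clustering (0.0525). Fibroblasts gave 0.36 (SE 0.19, not called), 2.20 above macrophages (SE 0.35, adjusted p = 0.00185).

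Calls within single clusters were counted too. In cluster 10 of the macrophages 3 were called (Hmox1, Srxn1, Txnrd1, all lower) against 9 over the class. Of all genes 18.1% were called there and 27.3% over the class. In cluster 11 of the fibroblasts 2 were called (Hmox1, Gclm, both higher) against 6, and 11.0% of all genes against 33.1%. Gpx3 was not tested in either cluster, nor Slc7a11 in cluster 11. Basal cluster 3 (Krt24, Krt15, Lhx2) had none of the 10 called, and 1.20% of all genes, against 10.1% over the basal class. In basal keratinocyte cluster 8 (Krt14, Fgfbp1) 3 were called against 1 over the class: Srxn1 -1.46, Txnrd1 -0.77 and Txn1 0.46 (SE 0.36, 0.22 and 0.11; edgeR BH-adjusted p = 0.0219, 0.0379 and 0.0152; 13.6% of all genes called).

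The day of sampling was asked of the arm effect itself, as the effect on day 2 minus that on day 1; day 4 had 1 library per arm. Of 91 gene and class pairs tested with edgeR, 0 were called, and 8 had an unadjusted p under 0.05; the percent of all genes called was 0 in 5 classes, fibroblasts and macrophages among them, 0.00810 in basal keratinocytes (lower), 0.0184 in endothelial cells (0.00918 each way), 0.0159 in NK and innate lymphoid cells (higher), 0.0118 in Schwann cells (lower) and 0.0110 in smooth muscle (higher). The lowest adjusted p was 0.625. In fibroblasts Prdx5 gave a difference of 0.93 (SE 0.34, unadjusted p = 0.0223, edgeR BH-adjusted p = 1.000), with expanded libraries at 154 and 209 CPM on day 1, 452 and 403 on day 2 and 542 on day 4, and control libraries at 88.4 and 122, 119 and 181, and 183. Gclm in fibroblasts, not among the 8, gave -0.56 (SE 0.31), with expanded libraries at 92.8 and 126, then 68.8 and 74.2, then 42.9 CPM. Gclm was among the 8 in macrophages (0.99, SE 0.41) and in Schwann cells (1.49, SE 0.58). Smooth muscle held 5 of the 8 unadjusted values (Gpx3, Hmox1, Srxn1, Txn1 and Txnrd1, differences from 0.79 to 2.27). Among all genes tested, 597 of 9118 passed the same unadjusted threshold in smooth muscle and 632 of 14116 in fibroblasts. In macrophages 260 of 11322 did, and in Schwann cells 147 of 8504.

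Of the 88 other redox genes in 7 lists, chosen with these data known, 84 were tested in fibroblasts (24 higher, 14 lower; median log2 fold change 0.10) and 77 in macrophages (12 higher, 19 lower; median -0.08). In all genes tested 16.5% were higher and 16.6% lower in fibroblasts, and 12.2% and 15.0% in macrophages. Values of these other genes are over whole classes, whose cluster shares differed between arms. The part of cluster shares in them was not tested. The list of NRF2 regulators, 8 genes, had 3 lower and 1 higher in fibroblasts and 4 lower in macrophages. Bach1, the repressor, fell by 0.56 in fibroblasts (220 ± 31.7 to 169 ± 34.8 CPM; SE 0.16, edgeR BH-adjusted p = 0.0207) and by 0.67 in macrophages (459 ± 42.8 to 312 ± 56.0; SE 0.16, adjusted p = 0.0116). Nfe2l2, which encodes NRF2, fell by 0.35 in fibroblasts (SE 0.11, adjusted p = 0.0261), by 0.55 in macrophages (307 ± 15.6 to 227 ± 28.9; SE 0.14, adjusted p = 0.0132) and by 0.72 in endothelial cells (287 ± 21.9 to 186 ± 34.1; SE 0.15, adjusted p = 0.00769). Keap1 was 0.42 higher in fibroblasts (SE 0.14, adjusted p = 0.0372), and Mafk, a small MAF partner, fell by 1.07 there (SE 0.15, adjusted p = 5.7e-04).

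Superoxide and hydrogen peroxide genes had 2 of 9 higher and 1 lower in fibroblasts. Sod2, the mitochondrial superoxide dismutase, went from 173 ± 48.4 to 720 ± 232 CPM in fibroblasts (log2 fold change 1.87, SE 0.22, edgeR BH-adjusted p = 2.5e-04), and Sod3, the secreted form, from 104 ± 66.9 to 280 ± 82.2 (1.30, SE 0.29, adjusted p = 0.00575). In macrophages Cyba, a subunit of the phagocyte NADPH oxidase, went from 686 ± 226 to 1398 ± 439 (0.91, SE 0.18, adjusted p = 0.00475) and Cat, catalase, fell by 1.02 (SE 0.19, adjusted p = 0.00354). The glutathione list had 6 of 19 higher and 3 lower in fibroblasts, led by the glutaredoxin Glrx (25.6 ± 4.88 to 110 ± 45.1 CPM; 1.89, SE 0.27, adjusted p = 6.0e-04). In macrophages it had 3 of 17 higher and 4 lower, with glutathione reductase, Gsr, from 26.4 ± 3.82 to 92.0 ± 27.8 CPM (1.70, SE 0.23, adjusted p = 0.00102). Gsr was also called higher in fibroblasts (1.32), endothelial cells (0.97), lymphatic endothelial cells (0.91) and smooth muscle (1.20).

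Blvrb, biliverdin reductase B, which follows heme oxygenase, went from 100 ± 20.2 to 156 ± 8.22 CPM in fibroblasts (0.46, SE 0.12, edgeR BH-adjusted p = 0.0146) and from 363 ± 46.2 to 128 ± 36.3 in macrophages (-1.63, SE 0.21, adjusted p = 8.5e-04). The heme and iron list had 2 of 8 higher in fibroblasts, and 1 of 7 higher and 3 lower in macrophages; the difference of the list between classes was not tested. Hp, haptoglobin, was the higher one in macrophages (18.8 ± 15.3 to 193 ± 129 CPM; 3.23, SE 0.37, adjusted p = 6.6e-04). The list of NADPH supply and detoxification genes had 7 of 16 higher and 4 lower in fibroblasts and 4 of 14 higher and 3 lower in macrophages. Esd, an esterase that ends formaldehyde detoxification, was 1.59 higher in fibroblasts (133 ± 25.5 to 453 ± 101 CPM; SE 0.16, adjusted p = 1.6e-04). Nqo1, a classical NRF2 target, was higher in basal keratinocytes (16.2 ± 5.01 to 31.7 ± 3.06 CPM; 0.98, SE 0.14, adjusted p = 0.00444), the class in which Srxn1 was lower.

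The thioredoxin and peroxiredoxin list had 4 of 16 higher and 2 lower in fibroblasts and 2 and 2 in macrophages. Selenop, the plasma selenium carrier, fell by 1.58 in fibroblasts, 2.82 in macrophages (4063 ± 1564 to 659 ± 474 CPM), 1.17 in endothelial, 1.26 in lymphatic endothelial cells, 0.97 in basal and 1.25 in suprabasal keratinocytes (SE 0.22, 0.42, 0.17, 0.24, 0.15 and 0.20; edgeR BH-adjusted p = 4.8e-04, 0.00155, 0.00138, 0.00380, 0.00474 and 0.00655). Medians of the summed fibroblast markers fell too, from 727 to 44.7 CPM in basal and 1088 to 64.2 in suprabasal keratinocytes. They fell from 1283 to 208 CPM in endothelial and 1613 to 113 in lymphatic endothelial cells. The part of transcripts from other cells in the Selenop values was not tested. Targets of ATF4, a transcription factor that also drives Slc7a11, had 2 of 8 higher and 1 lower in fibroblasts. Asns, asparagine synthetase, was higher there (0.90), in endothelial cells (0.88) and in basal (0.84) and suprabasal keratinocytes (1.04). Over the other classes the lists gave 14 of 77 called in basal keratinocytes (10.1% of all genes tested), 14 of 73 in endothelial cells (12.5%), 12 of 59 in lymphatic endothelial cells (10.0%), 14 of 70 in smooth muscle (15.7%) and 5 of 71 in suprabasal keratinocytes (4.78%). In T cells (63 tested), Schwann cells (64) and NK and innate lymphoid cells (51) none was called with edgeR.

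The genes did not share 1 pattern over cell classes. Over 131 units of class and library, which share libraries and so are not independent, the highest Spearman correlations among the members were 0.61 for Txnrd1 with Hmox1, 0.59 for Hmox1 with Slc7a11 and 0.57 for Txnrd1 with Slc7a11, and Prdx1 with Prdx6 gave -0.44. Among 8900 other genes the most alike were Mcl1 (0.81) and Itga5 (0.79) for Hmox1, Pir (0.79) and Ptpn14 (0.76) for Gclm, Plin2 (0.70) and Gda (0.63) for Slc7a11, and Ctsz (0.71) and Tnfaip2 (0.67) for Txnrd1. For Gpx3 they were Pde3a (0.75) and Fhl1 (0.70), for Prdx6 B4galnt1 (0.78) and Def6 (0.76), for Prdx1 Ndufc2 (0.76) and Naa50 (0.73), for Prdx5 Thbs1 (0.69) and S100a11 (0.68), for Txn1 Pkm (0.64) and Sod2 (0.61), and for Srxn1 Por (0.65) and Aff1 (0.59).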

How the data were processed

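The authors deposited UMI counts per gene and cell for 10 mRNA libraries, made with Cell Ranger 6.1.2 on mm10 per the submitters' processing notes; 1 control title that names hashing was read as mRNA from its library type. Cells with at least 200 genes, 500 UMIs and at most 10% mitochondrial counts were kept. Scrublet doublets at 0.8% per 1000 cells and hashtag doublets (Seurat 5.3.0) were removed. Clustering used scanpy 1.11.5 with 2000 variable genes, 30 components and Leiden resolution 1. Counts were summed per class and library (20 cells or more, 4 libraries per arm) and tested with edgeR 4.0.16 (TMM, Benjamini-Hochberg, day as covariate). The fit was also run on simulated data with 200 changed among 13276 fibroblast genes. It recovered 0% of them at log2 0.5, 57% at 1 and 91.5% at 2, with 0, 8 and 12 false calls. In the data 4397 fibroblast genes were called, so these rates do not describe the fits reported here. Same-numbered libraries share a sequencing round per the labels; their residual correlations were 0.04 to 0.27. Named other genes are up to 3 called per list and class with the largest change, moving the same way in at least 4 pairs. Alternatives were DESeq2 1.42.0, no filter, replicate block, thinning, another clustering, a 5% mitochondrial limit, mice as units and leaving out each library. Hashtag counts served only to remove doublets and to assign 14 mice per arm. They assigned 20575 of 44342 cells. The day 1 round 1 libraries had no hashtags, so only Scrublet doublets were removed there. Mice of 1 arm and round shared a tube and library, so fits with mice as units count shared library effects as replicated. The genes and lists were chosen with earlier results of these data known.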

Additional observations from a re-analysis of the deposited data

Results flagged for a closer look

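Dixon's test was run on 166 sets of libraries of 1 gene, class and arm, and chance marks about 1 in 20; 10 held a library far from the others. In lymphatic endothelial cells these were Gclm of the control day 2 round 1 library (28.4 CPM, others 71.7 to 88.3) and Gpx3 of control day 2 round 2 (67.0, others 0 to 16.9). Hmox1 stood apart in NK and innate lymphoid cells of control day 1 round 1 (30.7, others 2.72 to 10.0) and in T cells of expanded day 1 round 1 (36.8, others 6.80 to 13.4). Prdx1 did in smooth muscle of control day 2 round 1 (577, others 455 to 475), and Prdx5 in suprabasal keratinocytes of expanded day 1 round 2 (518, others 357 to 368). Srxn1, a low transcript, stood apart in expanded libraries of 4 classes: endothelial cells of day 2 round 2 (5.85, others 21.6 to 24.9), NK and innate lymphoid cells of day 1 round 2 (45.3, others 0 to 9.44), suprabasal keratinocytes of day 1 round 1 (25.8, others 13.1 to 13.5) and T cells of day 1 round 2 (29.5, others 10.8 to 15.9).

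The effect of expansion differed between cell classes in 19 of 59 tests of the difference itself (log2 scale, edgeR with library as a block). Fibroblast minus macrophage was 3.34 for Hmox1, 2.20 for Srxn1, 1.36 for Gclm, 1.09 for Prdx1, 0.83 for Txnrd1 and -1.30 for Prdx6 (11.0% of all genes higher, 5.37% lower). Fibroblast minus endothelial was 2.88 for Slc7a11, 2.37 for Hmox1, 0.68 for Txn1, 0.68 for Txnrd1 and -2.71 for Gpx3 (3.62% and 1.69%). Macrophage minus endothelial was 2.86 for Slc7a11, 1.36 for Prdx5, 1.06 for Prdx6, 0.84 for Txn1, -0.71 for Prdx1 and -1.81 for Srxn1 (4.10% and 4.47%). Fibroblast minus suprabasal keratinocyte was 2.13 for Hmox1, and macrophage minus suprabasal keratinocyte 1.72 for Prdx5 (2.14% of all genes called).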

How the results depend on the processing

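Of the 21 calls of the 10 genes over classes, 13 held under every alternative run for them, fits within single clusters apart, as did 15 of 19 class differences. No direction reversed. The 4 class differences lost, all by thinning to 2000 UMIs, were Gpx3 and Txnrd1 for fibroblast minus endothelial, Txnrd1 for fibroblast minus macrophage and Hmox1 for fibroblast minus suprabasal keratinocyte (edgeR BH-adjusted p = 0.811, 0.273, 0.0633 and 0.571). Counts of the 10 genes called, 1 in basal and suprabasal keratinocytes, 0 in endothelial and T cells and 2 in lymphatic endothelial cells and smooth muscle, moved as follows. Without a filter on low counts they were 5 in basal keratinocytes, 2 in endothelial cells, 3 in suprabasal keratinocytes and 1 in T cells. With the replicate block (libraries of 1 day and round paired) they were 3, 2 and 2 in the first 3 of these, and no other call of these genes changed. DESeq2 gave 2 in basal keratinocytes, 1 in endothelial cells, 7 in fibroblasts (with Prdx1) and 10 in macrophages (with Gclm); no filter also gave 10 in macrophages. Thinning gave 2 in basal keratinocytes, 1 in lymphatic endothelial cells and 0 in suprabasal keratinocytes. Mice as units gave 2 in basal keratinocytes and 7 in fibroblasts, and a 5% mitochondrial limit 1 in smooth muscle. Within single clusters, an alternative chosen after seeing the data, they were 0 in cluster 3 and 3 in cluster 8 (basal), 3 in cluster 10 (macrophages) and 2 in cluster 11 (fibroblasts). The shares of all genes called in these clusters were 1.20%, 13.6%, 18.1% and 11.0%, in that order.

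Among the 88 other redox genes, no filter gave 22 called in basal and 13 in suprabasal keratinocytes and 2 each in NK, Schwann and T cells. The replicate block gave 11 in suprabasal keratinocytes and 1 each in NK and Schwann cells, and DESeq2 gave 3, 1 and 1. Thinning gave 2 in basal keratinocytes, 7 in endothelial, 5 in lymphatic endothelial cells, 9 in smooth muscle and 0 in suprabasal keratinocytes. Clustering with all variable genes gave 8 in basal keratinocytes, and mice as units 7 in endothelial and 2 in T cells. Class differences were counted in the redox genes listed first in the Results, not in these other genes. Of those first genes, thinning gave 3 called for fibroblast minus endothelial and 3 for macrophage minus suprabasal. No filter gave 3 each for fibroblast and macrophage minus suprabasal and 1 for suprabasal minus endothelial. The causes were not tested.

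Leaving out 1 library at a time, the 10 genes had 0 to 4 calls in basal keratinocytes, 0 to 2 in endothelial cells, 6 to 6 in fibroblasts, 0 to 3 in lymphatic endothelial cells, 7 to 10 in macrophages, 0 to 2 in smooth muscle and 0 to 2 in suprabasal keratinocytes. The other redox genes had 5 to 17, 11 to 15, 33 to 40, 4 to 12, 19 to 32, 4 to 15 and 1 to 7 in the same classes, and 0 to 1 in Schwann and T cells. Low transcripts such as Slc7a11 outside myeloid cells rest on few UMIs.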

Other observations

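Single mice, told apart by hashtags, showed how the macrophage values were spread within an arm and day. The mice of day 2 came from the pools of both sequencing rounds, so their ranges also hold differences between pools. On day 2, Hmox1 ran from 248 to 3356 CPM over 7 control mice (median 879) and from 138 to 643 over 7 expanded mice (median 317), so the arms overlapped. On day 4 it ran from 683 to 2072 in 4 control and from 287 to 525 in 4 expanded mice, without overlap. Slc7a11 ran from 0 to 107 CPM in the control and from 129 to 377 in the expanded mice of day 2, and from 24.1 to 109 and 125 to 319 on day 4. Its arms did not overlap on either day.

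The share of macrophages with an Hmox1 UMI differed less between arms than the level did. It was 72.8% in control and 76.8% in expanded libraries, and 63.0% and 40.3% with each cell thinned to 2000 UMIs. T cells, where the gene was low, had thinned shares of 2.50% and 2.72%. Among classes with too few libraries for the test, dermal papilla cells held 114 ± 48.3 CPM of Hmox1 in control (n = 3) and 273 ± 29.1 in expanded libraries (n = 4), with no overlap (58.6 to 146 and 237 to 305).

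Unnamed clusters gave further values. Hmox1 fell by 2.81 on the log2 scale in cluster 21, with Ccl22 and Cd207 among its leading genes (SE 0.68, edgeR BH-adjusted p = 0.0371; 5.63% of all genes called). Txnrd1 fell by 0.97 in cluster 1 (SE 0.27, adjusted p = 0.0323), and Txn1 was 0.67 higher in cluster 2 (SE 0.15, adjusted p = 0.0177).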
